A study of Arabidopsis thaliana with 4 samples.

Results

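The response of 9 stress and immune signalling genes to induction of KUA1, a MYB-like transcription factor, was followed in Arabidopsis seedlings. The 9 genes were represented by 9 of the 22746 probe sets tested, 1 probe set per gene. They were the ubiquitin ligase gene CNI1 (AT5G27420, also named ATL31) and the protein kinase genes RIPK (AT2G05940), MAPKKK19 (AT5G67080) and CPK15 (AT4G21940). With them were the transcription factor genes ZAT10 (AT1G27730), ZAT12 (AT5G59820) and CEJ1 (AT3G50260), and the membrane protein gene NHL10 (AT2G35980). The last was AT2G36220, for which the tables used here give no role. The 9 were chosen by locus with their estradiol-to-mock differences on these arrays in view. All but ZAT10 are also on the study's own list of changed genes. Their differences between the groups are therefore a description and were not tested.

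Estradiol-treated seedlings carried KUA1-IOX, a construct in the Col-0 background from which a constitutively made chimeric factor drives KUA1 once estradiol carries it into the nucleus. They were 14 days old, of the T3 generation, and were kept for 4 h in liquid medium with 15 µM estradiol. Mock seedlings were of the same age and were given the ethanol solvent alone for the same time. One label field names the mock genotype only as a control, but the sample titles name KUA1-IOX for both groups. RNA of whole seedlings was hybridized to Affymetrix ATH1 arrays, with 2 biological replicates per group and 4 arrays in all. No estradiol-treated seedlings without the construct were among the 4 arrays, so the effect of estradiol and that of KUA1 cannot be told apart.

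Plants perceive microbial molecules with receptors at the cell surface, which pass the signal on through receptor-like cytoplasmic kinases, calcium influx with calcium-dependent kinases, reactive oxygen species and MAP kinase cascades. These reach transcription factors of the WRKY, zinc-finger and AP2/ERF families, and ubiquitin ligases limit or redirect the response by marking proteins for degradation. Many of the same genes respond to cold, wounding, touch, intense light and oxidants, so a transcript of this group does not by itself name the stimulus.

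Signals are given on the linear MAS5 scale, 1 value per probe set and array, with each array scaled to a trimmed mean of 100.0. The median signal was 37.5 and 36.2 on the estradiol arrays and 36.2 and 38.9 on the mock arrays. A probe set whose group mean on the log2 scale fell below the 40th percentile of all such means of that group is called dim in it. On single arrays, the 40th percentile of the signals was 22.1 and 21.9 for estradiol and 21.7 and 23.5 for mock. Log2 differences are estradiol minus mock, with a standard error (SE) from limma, a linear model fitted across all probe sets. Limma draws each gene's variance towards that of probe sets of like signal. The SE is therefore not the spread of that gene's own replicates alone. For AT2G36220 the SE was 0.39 and the pooled standard deviation of the replicates 0.61. For CEJ1 they were 0.16 and 0.07. KUA1 itself had signals of 1887 and 3373 on the estradiol arrays and 203 and 170 on the mock arrays, a log2 difference of 3.76 (SE 0.29, n = 2 arrays per group). Of the leaf and root markers looked up, 6 each, 1 of each kind had a probe set named here. The leaf gene RCA differed by -0.11 with overlapping signals, and the root gene PYK10 by -0.23, lower on both estradiol arrays. Their part in the results below was not tested.

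All 9 genes had a higher signal on both estradiol arrays than on either mock array. The same was true of 16.1% of all probe sets tested, and nothing is read from this contrast, since it chose the genes. Of the 9, 8 also differed at least 2-fold between the group means, against 2.57% of all probe sets, and 6 did so whichever estradiol array was set against whichever mock array, 4 pairings in all, against 0.686%. Among probe sets dim in neither group, these shares were 16.4%, 0.703% and 0.272%. In the opposite direction, 18.0% of all probe sets were lower on both estradiol arrays and 2.31% were also at least 2-fold lower. The median log2 difference of the 9 was 1.47, between 0.57 for ZAT10 and 2.92 for AT2G36220, and that of all probe sets was -0.01. In RNA of whole seedlings, fewer cells of a type and less RNA per cell cannot be told apart, nor can more cells and more RNA per cell. The fit with limma called 0.00% of the 22746 probe sets higher and 0.00% of them lower with an adjusted p under 0.05. An unadjusted p under 0.05 was found for 1481, and the test that the methods name called 0 after Benjamini-Hochberg adjustment.

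**Figure D1:**
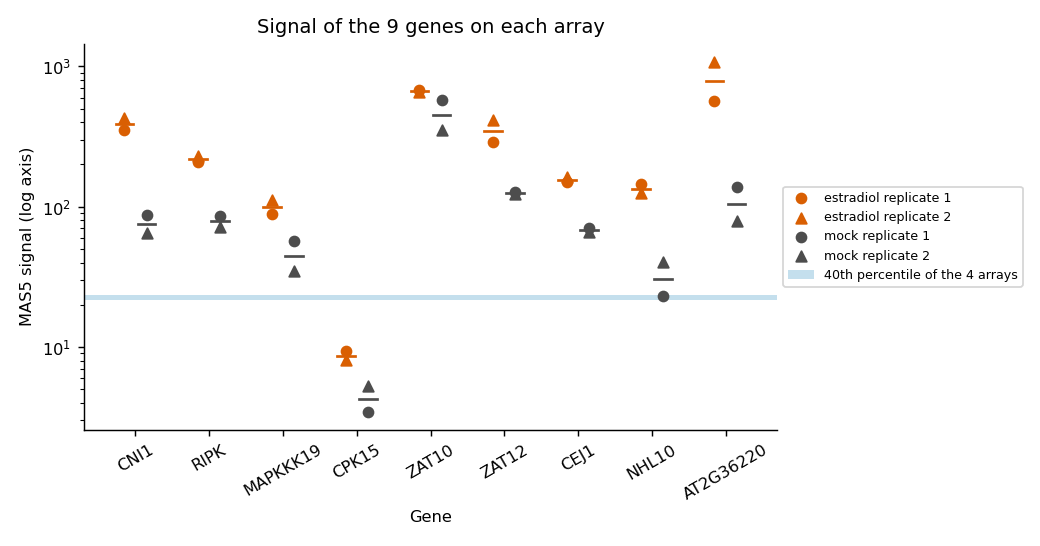
MAS5 signal (log axis) of the 9 genes on the 2 estradiol arrays (orange) and the 2 mock arrays (grey), with the geometric mean of each group as a short line and the 40th percentile of all probe sets on the 4 arrays as a blue band. The estradiol points lie above the mock points for every gene, CPK15 lies wholly under the band, and the groups come closest for ZAT10.

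CNI1 encodes a membrane-bound RING-type ubiquitin ligase of the ATL family, which acts on 14-3-3 proteins and is known for the seedling's response to the carbon-to-nitrogen balance as well as for resistance to bacteria. Its signals were 351 and 426 on the estradiol arrays and 87.5 and 65.3 on the mock arrays. The lower estradiol signal thus stood 4.01-fold above the higher mock signal, and the log2 difference was 2.35 (SE 0.20).

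Of the 3 kinases, RIPK is a receptor-like cytoplasmic kinase of subfamily VII that phosphorylates RIN4, a plasma membrane protein guarded by immune receptors. Its signals were 208 and 231 on the estradiol arrays and 86.1 and 72.0 on the mock arrays, a log2 difference of 1.48 (SE 0.17). The groups did not overlap, and single arrays differed between the groups by 2.41-fold to 3.21-fold. MAPKKK19, a MAP kinase kinase kinase and so an entry point of a phosphorylation cascade, had signals of 89.1 and 111 on the estradiol arrays and 56.8 and 35.0 on the mock arrays. Its log2 difference was 1.15 (SE 0.28), and the gap between the groups was narrow, estradiol replicate 1 standing 1.57-fold above mock replicate 1.

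CPK15, a calcium-dependent protein kinase, was the one gene of the 9 that was dim in both groups. Its signals of 9.37 and 8.04 on the estradiol arrays and 3.44 and 5.23 on the mock arrays all lay under the 40th percentile. The log2 difference of 1.03 (SE 0.45) shrank to 0.16 once 32 was added to every signal before taking logarithms, so no fold is given for it, although it is among the 8 genes counted above as at least 2-fold.

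Among the 3 transcription factor genes, ZAT10 and ZAT12 encode C2H2 zinc-finger proteins with a repressor motif, which accumulate after salt, cold, intense light and oxidative treatment. ZAT12 had signals of 287 and 418 on the estradiol arrays and 128 and 123 on the mock arrays, a log2 difference of 1.47 (SE 0.21). The estradiol arrays lay apart, and the mock arrays were nearly equal.

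ZAT10 had signals of 674 and 658 on the estradiol arrays and 572 and 354 on the mock arrays. The estradiol replicates were almost equal, whereas the mock replicates lay far apart, and the log2 difference of 0.57 (SE 0.25) depended on which of them was used. It was 0.22 without mock replicate 2 and 0.91 without mock replicate 1. ZAT10 was the one gene that was under 2-fold in all 4 comparisons of single arrays, which gave 1.15-fold to 1.91-fold.

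CEJ1, also named DEAR1, encodes a DREB-type AP2/ERF factor with a repressor motif that was named after its response to ethylene and jasmonate. Its signals were 150 and 163 on the estradiol arrays and 70.1 and 66.3 on the mock arrays. Single arrays differed between the groups by 2.14-fold to 2.45-fold, the narrowest range of the 9 genes, and the log2 difference was 1.19 (SE 0.16).

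NHL10, an NDR1/HIN1-like membrane protein, is widely used as a marker gene of the response to microbial elicitors and also accumulates in senescent leaves. Its signals were 145 and 125 on the estradiol arrays and 23.0 and 40.5 on the mock arrays, and the log2 difference was 2.14 (SE 0.30). The signal on mock replicate 1 lay close to that array's 40th percentile of 21.7. With 32 added to every signal, the difference was 1.40.

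AT2G36220, for which the tables used here give no gene name and no role, had the highest difference of the 9. Its signals were 569 and 1083 on the estradiol arrays and 137 and 78.6 on the mock arrays, a log2 difference of 2.92 (SE 0.39). The replicates differed in both groups, and single arrays differed between the groups by 4.15-fold to 13.8-fold. Without 1 array at a time, its log2 difference was 2.45 to 3.38.

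In the order of the log2 differences, AT2G36220 was followed by CNI1, NHL10, RIPK, ZAT12, CEJ1, MAPKKK19, CPK15 and ZAT10. The ranges of the 4 single-array comparisons overlapped between each gene and the next in this order. These ranges were not matched by array pair, so their overlap does not show that neighbouring genes were not separated. Over longer steps the ranges themselves lay apart. CNI1, at 2.00 to 2.70, lay above RIPK at 1.27 to 1.68 and ZAT12 at 1.16 to 1.77, and CEJ1, at 1.09 to 1.29, lay above ZAT10 at 0.20 to 0.93. The 3 genes that were under 2-fold in at least 1 comparison of single arrays were MAPKKK19, CPK15 and ZAT10, and among them are the kinases other than RIPK. On log2(signal + 32), which draws in differences between dim signals, 5 of the 9 stayed past 2-fold, namely AT2G36220 at 2.58, CNI1 at 1.96, NHL10 at 1.40, ZAT12 at 1.27 and RIPK at 1.18, while CEJ1 stood at 0.91 and MAPKKK19 at 0.77.

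**Figure D2:**
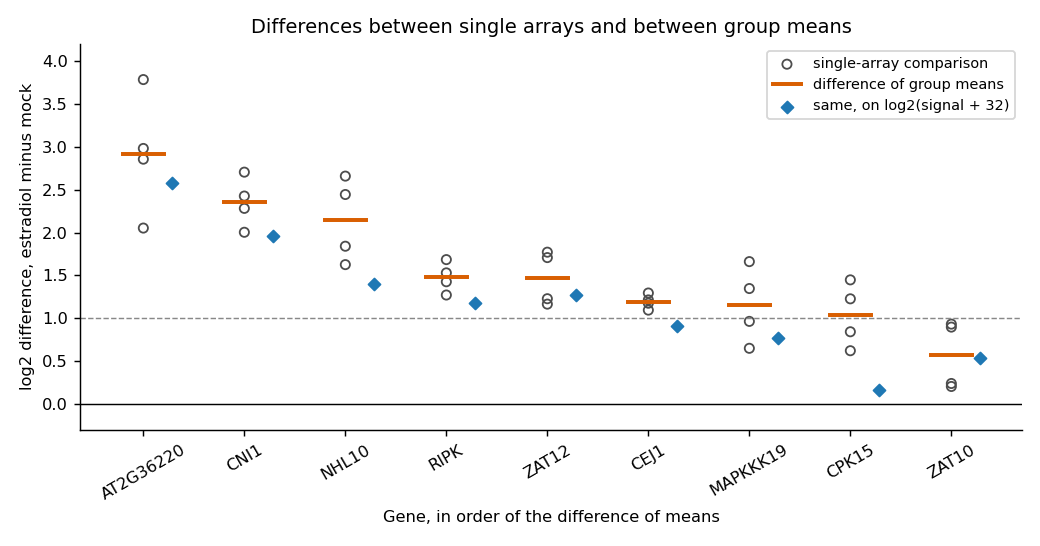
Log2 difference of each of the 9 genes, estradiol minus mock, with the 4 comparisons of single arrays as open circles, the difference of the group means as an orange bar and the same difference on log2(signal + 32) as a blue diamond. Genes are ordered by the difference of means, the dashed line marks 2-fold, and the circles of neighbouring genes overlap throughout.

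The difference between the 2 replicates of a group is not the contrast between the groups. It is no independent measure either, since the study's list, which holds 8 of the 9, was chosen with a test that depends on replicate spread, and the values below are a description. Among the 13236 probe sets that were dim in neither group, the replicates of a group differed by a median of 0.22 on the log2 scale in either group, and 90% of them by at most 0.61 in estradiol and 0.62 in mock. AT2G36220 varied most of the 9 between the estradiol replicates, by 0.93, and by -0.80 between the mock replicates (replicate 2 minus replicate 1), which placed it at the 96.8th and 94.9th percentile of absolute differences. For NHL10, MAPKKK19 and ZAT10, the estradiol replicates differed by -0.21, 0.31 and -0.03. Their mock replicates differed by 0.82, -0.70 and -0.69, at the 95.2nd, 92.5th and 92.3rd percentile. CEJ1 differed by 0.12 in estradiol and by -0.08 in mock, at the 29.7th and 19.9th percentile. RIPK differed by 0.15 in estradiol and by -0.26 in mock, at the 37.8th and 56.4th percentile.

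The directions of these replicate differences were often shared. In 6 of the 9 genes, the signal was higher on estradiol replicate 2 than on replicate 1 and at the same time higher on mock replicate 1 than on replicate 2, namely CNI1, RIPK, MAPKKK19, ZAT12, CEJ1 and AT2G36220. This order was found in 32.1% of all probe sets and in 32.3% of those dim in neither group. KUA1 had it too, with 0.84 between the estradiol replicates and -0.25 between the mock replicates. Its part in the spread of the 6 genes was not tested, and genes measured on the same 4 arrays are not independent of each other. NHL10 and CPK15 ran the opposite way in both groups, with -0.21 and -0.22 in estradiol and 0.82 and 0.61 in mock, and ZAT10 was lower on replicate 2 in both.

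**Figure D3:**
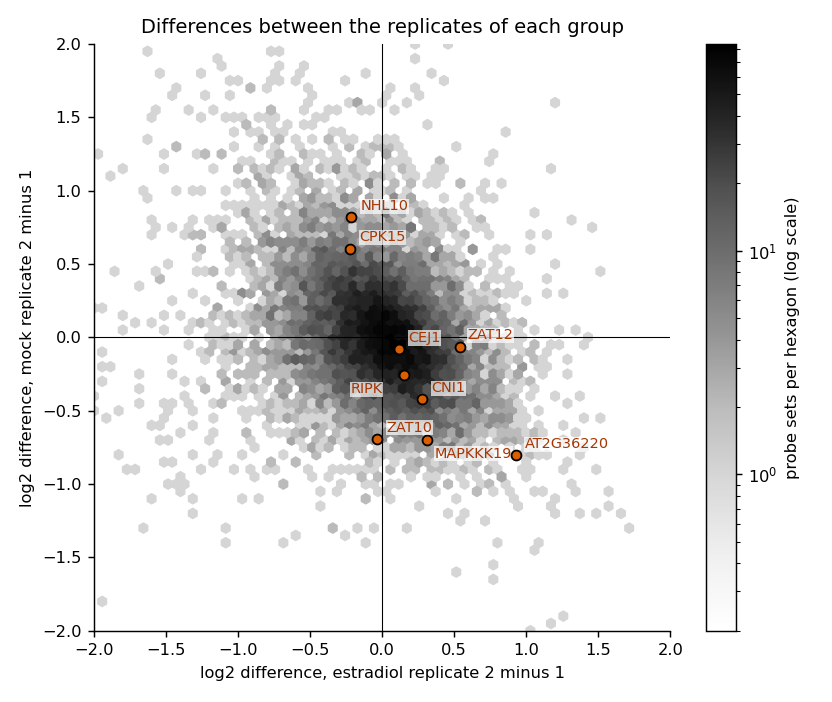
Log2 difference between the 2 estradiol arrays (horizontal axis) and between the 2 mock arrays (vertical axis), replicate 2 minus replicate 1, for the 9 genes (orange points) and for the 13236 probe sets dim in neither group (grey hexagons, darker with more probe sets). AT2G36220 lies farthest to the lower right of the 9, at 0.93 and -0.80, and 6 of the 9 genes lie to the right of and below the crossing of the 0 lines. The axes end at 2 in either direction, which leaves out 50 probe sets.

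The mean profile of the 9 genes, after centring each gene's 4 log2 signals, was 0.69 and 0.90 on the estradiol arrays and -0.71 and -0.88 on the mock arrays. RIPK was nearest to it, with a Euclidean distance over the 4 arrays of 0.13, followed by ZAT12 at 0.28 and CEJ1 at 0.41. AT2G36220 at 1.49 and ZAT10 at 1.10 were farthest from it, the one above and the other below the mean difference. Of the other genes that the platform table names, the 5 nearest to the profile were AT2G13890, AT4G26770, AT3G27120, AT1G48390 and AT2G27390, at 0.19 to 0.25, and each was dim in both groups, with no signal above 6.21. Among genes dim in neither group, a restriction added after the values were seen, ZCF37 came nearest at 0.34, with signals of 122 and 159 on the estradiol arrays and 48.7 and 55.7 on the mock arrays. It was followed by AT5G48540, the glucosyltransferase gene UGT73B4, AT1G10140 and AT1G19020, at 0.41 to 0.47. Those 4 are on the study's list of changed genes and ZCF37 is not. That list was drawn from this same contrast, so nothing is read from their place on it. With 4 arrays, likeness to this profile is mostly a higher signal on both estradiol arrays.

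The genes next to the 9 on their chromosomes were read as well. On either side, the nearest gene to which the platform table gives a probe set of its own was taken, called measured here. Genes passed over may have a probe set that is not named here. There were 18 such neighbours in all, of which 10 were directly adjacent. Of these 18, 1 was higher on both estradiol arrays and 6 were lower, against 16.1% and 18.0% of all probe sets, and the median log2 difference was -0.08. Dim in both groups were 5 of the 18, among them the lower AT5G67090, AT4G21950 and AT2G36200. Of the other lower ones, AT5G59830 differed by -0.13 and AT2G36240 by -0.07. The one that was higher was SAT32 beside ZAT10, with 137 and 166 on the estradiol arrays and 136 and 100.6 on the mock arrays, a log2 difference of 0.37, and 3 genes without a probe set named here lie between them. Directly beside CEJ1, AT3G50270 had signals of 92.6 and 76.2 on the estradiol arrays and 140.0 and 136 on the mock arrays, a log2 difference of -0.71. Both neighbours of CNI1 are directly adjacent and differed by -0.08 and 0.12, with overlapping groups. PUB23, a U-box ubiquitin ligase gene known as a brake on pattern-triggered immunity, is the nearest measured gene before NHL10 and differed by 0.13, also with overlapping groups. At 2-fold or more stood 1 neighbour, AT4G21950 beside CPK15 at -1.42, and its signals were all under 1.

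Relatives and pathway genes of the 9 were taken from lists of 210 genes, of which the platform table gives 27 a probe set of their own. The others are not analysed here. Of the 27, limma called 0 in either direction (adjusted p under 0.05). It called 0 of all 22746 probe sets too, KUA1 included, so nothing about the 27 is read from this. An unadjusted limma p under 0.05 was found for 5 of the 27, against 6.51% of all probe sets. On both estradiol arrays, 8 of the 27 were higher and 0 lower, against 16.1% and 18.0% of all probe sets. The median log2 difference of the 27 was 0.17. Among the 8, PBL13 and PBL18 were dim in both groups, ATL80 was dim in mock, and NHL6 is on the study's own list. The lists were chosen with earlier results of these data known, so nothing is read from these counts. The smallest adjusted p of the 27 was 0.46 (limma), that of CML38.

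RIPK belongs to the subfamily VII kinases, of which 11 of 19 others were measured, with a median log2 difference of 0.16. Higher on both estradiol arrays were 3 of them, PBL19 at 0.41, PBL18 at 0.66 and PBL13 at 2.42, against 16.1% of all probe sets. PBL18 and PBL13 were dim in both groups. BIK1, the kinase that acts directly under the receptors of bacterial flagellin, is named here after its values were seen. It had signals of 427 and 378 on the estradiol arrays and 429 and 297 on the mock arrays, so the groups overlapped. Of 13 ATL relatives of CNI1, 5 were measured, with a median of 0.08. Of these 5, 1 was higher on both estradiol arrays, again against 16.1% of all probe sets. It was ATL80 at 0.32, which was dim in mock. The zinc-finger relatives of ZAT10 and ZAT12 had 2 of 9 measured, ZAT5 at -0.33 and ZAT18 at 0.89, both with overlapping groups, and ZAT18 was dim in both groups. None of the calcium-dependent kinases, the MAP kinase cascade, the DREB factors, the 14-3-3 proteins or the jasmonate genes listed had a probe set named here.

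NHL6, the one measured of the 11 NDR1/HIN1-like and RIN4-module genes, had signals of 241 and 107 on the estradiol arrays and 58.5 and 64.9 on the mock arrays, a log2 difference of 1.38 (SE 0.38, adjusted p = 0.59 with limma). It is on the study's list too, and it was 0.79 without estradiol replicate 1. CML38, a calmodulin-like protein of the touch and wound response, had signals of 209 and 184 on the estradiol arrays and 120 and 83.7 on the mock arrays, a log2 difference of 0.97 (SE 0.21). SAG101, a partner of EDS1 in immunity by intracellular receptors, differed by 0.69 and was higher on both estradiol arrays.

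Of the elicitor list, 3 of 19 were measured, each with overlapping groups, WRKY22 at 0.63, WRKY53 at -0.39 and EFR, the receptor of bacterial elongation factor Tu, at 0.06. In the cold and abscisic acid list, 3 of 13 were measured. COR15B, a chloroplast protein that protects membranes in the cold, was higher on both estradiol arrays by 0.91, and COR47, a dehydrin, differed by 0.07 with overlapping groups. COR15A had signals of 188 and 25.5 on the estradiol arrays and 6.19 and 30.1 on the mock arrays, so that 1 array decided its log2 difference of 2.34 and the groups overlapped.

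The families below were added by gene symbol after the values were seen and were not tested. Their totals count the genes matched by symbol or synonym, which need not be the whole family. Of the calmodulins and calmodulin-like proteins, which bind calcium as CPK15 does, 8 of 21 were measured, with a median of 0.40. Higher on both estradiol arrays were 3, CML38, CML23 at 0.79 and CML37 at 1.16, the last of them dim in both groups and on the study's list, and 1 was lower, CML41 at -0.65. Of the WRKY factors, 7 of 72 were measured, with a median of 0.01, and 0 were higher and 1 was lower on both estradiol arrays, WRKY42, which was dim in both groups. Of the U-box ubiquitin ligases, 9 of 23 were measured, with a median of 0.13, and PUB15 was higher and PUB26 lower on both estradiol arrays, both of them dim in both groups. Over all probe sets, 16.1% were higher and 18.0% lower on both estradiol arrays.

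**Figure D4:**
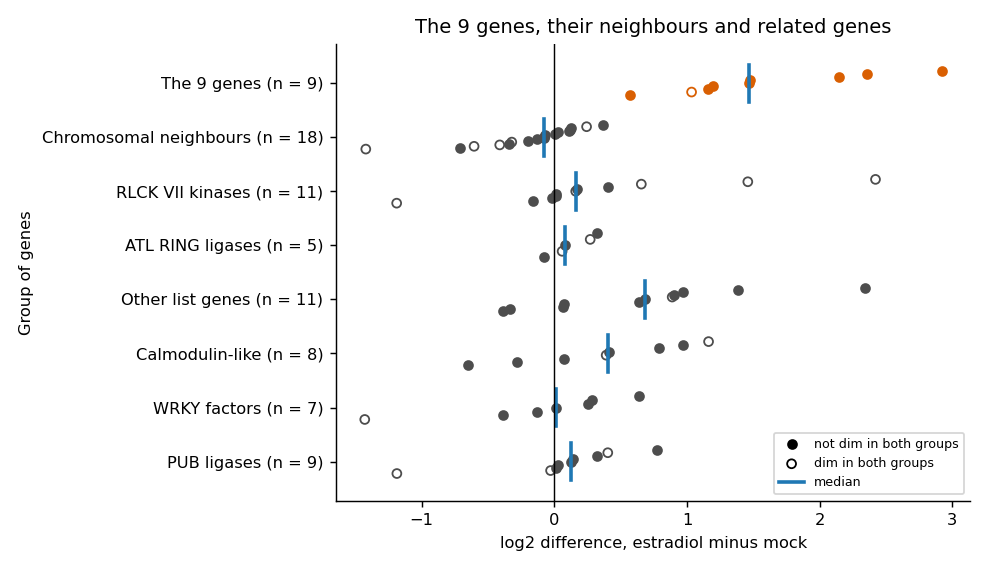
Log2 difference, estradiol minus mock, of the 9 genes (orange), their measured chromosomal neighbours, the measured relatives and pathway genes of the lists, and the families added by symbol (grey), 1 point per gene. Open points are dim in both groups and blue bars are medians, 1.47 for the 9 genes, -0.08 for the neighbours and 0.16 for the subfamily VII kinases.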

How the data were processed

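Whole-seedling RNA was hybridized to 4 ATH1 arrays, 2 per treatment. Linear signal intensities from MAS5 were deposited for each probe set and array, scaled to a trimmed mean of 100.0 (lowest and highest 2% left out). The MAS5 version and the build behind the probe sets are not given in the sources used here. Replicates are described as independent biological ones, and p-values measure their spread. In limma, that spread is drawn towards that of probe sets of like signal. The number of arrays limits the precision.

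Control probe sets (64 of 22810) were left out. Log2 signals of the other 22746, with no offset, were fitted with limma 3.58.1 in R 4.3.3 (lmFit, eBayes with trend, no block, Benjamini-Hochberg over all probe sets), tested on simulated data. The platform table names ZAT10 and AT2G36220, and 7 of the 9 probe sets were named only through the study's list of changed genes. RefSeq gene tables (TAIR10.1) gave symbols and neighbour order. The members and gene lists were chosen with earlier results of these data known. The genes named are the 9, KUA1, up to 3 of each list by smallest limma p, the nearest measured neighbours and the 5 genes nearest to the mean profile. Others were named after their values were seen. Alternatives were quantile and median scaling, log2(signal + 32), a floor under dim signals (the 40th percentile), a fit without dim probe sets, limma without trend, the replicate number as a term, the methods' t-test and each array left out.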

Additional observations from a re-analysis of the deposited data

How the results depend on the processing

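All 9 genes kept a positive log2 difference under every alternative that gave a value. CPK15 had none with a floor at the 40th percentile or without dim probe sets. Each of the 9 was higher on both estradiol arrays. Its sign was thereby fixed on log2(signal + 32) and with an array left out, which says nothing on robustness. On log2(signal + 32), the median of the 9 was 1.18 and 5 were at least 2-fold. Each array left out in turn, that median was 1.20 to 1.55, the ATL median 0.060 to 0.22 and the subfamily VII median -0.061 to 0.28. The subfamily VII median was 0.012 with the floor and 0.013 without dim probe sets. Probe sets at least 2-fold higher and lower on both arrays, 585 and 526, numbered 50 and 11 on log2(signal + 32), 102 and 56 with the floor, 133 and 87 without dim ones, and 143 and 120 by the methods' t-test with 2-fold. Those higher on both arrays, 3664, were 2276 with the floor and 2380 without dim ones. Such counts are not given with an array left out, which leaves fewer comparisons. The sign could not change with an array left out for any gene whose groups did not overlap. The 77 single genes and neighbours with a value include many such genes, the 9 and KUA1 among them. The sign changed for 23 of the 77, a share that understates how often it changed where it could. Of the genes from the lists, these were WRKY53 (-1.52 to 0.74, and 0.090 with the floor), ZAT18 (-0.71 to 2.48), ATL55 (-0.31 to 0.14), EFR (-0.30 to 0.42) and COR47 (-0.067 to 0.21). Of the neighbours named above, they were PUB23 (-0.30 to 0.55) and both neighbours of CNI1 (-0.23 to 0.067 and -0.022 to 0.26). The cause was not tested. The replicate numbers share no stated origin, and same-numbered deviations correlated at -0.30 across bright probe sets. With the replicate number as a block, limma called 0 higher and 0 lower. The crossed pairing, added after seeing the data, gave 3 higher and 0 lower.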
